A study of Bos taurus with 16 samples.

Results

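Bovine blastocysts cultured with 10 μM LY2955303 (LY10) from the 2-cell stage were compared with blastocysts kept in its vehicle (DMSO). Of the 16 RNA-seq libraries of the series, 6 belonged to this comparison: 3 LY10 and 3 DMSO libraries, each made from 1 whole blastocyst. All embryos were wild type, came from in vitro fertilization of oocytes taken from slaughterhouse ovaries, and carry the same batch label. LY2955303 is an antagonist selective for retinoic acid receptor gamma (RARγ), and the comparison asks which transcripts differ in embryos cultured with it from the 2-cell stage. The activity of the receptors was not measured in these libraries. A second set of 4 blastocysts, 2 treated from the 2-cell stage (cell2_LY) and 2 vehicle controls (LY_DMSO), is given beside it; the labels do not state its concentration. A blastocyst mixes trophectoderm, epiblast and hypoblast, and a lower transcript level in the whole embryo cannot be told apart from a smaller number of the cells that carry the transcript.

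Retinoic acid is made from retinol by retinol and retinaldehyde dehydrogenases, is carried in the cell by binding proteins, and is cleared by CYP26 enzymes. It acts through RARα, RARβ and RARγ, nuclear receptors that bind DNA as partners of the retinoid X receptors and switch target genes such as RARB, CYP26A1 and DHRS3. In the blastocyst, the trophectoderm forms the outer pumping epithelium that later builds the placenta, the epiblast gives the embryo proper and the hypoblast lays down basement membrane and gives the yolk sac.

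Each library had between 7905768 and 15137567 reads on genes. Values are normalized counts: reads recovered from the deposited FPKM, scaled to a common library size of 10651692, so they compare libraries for a gene and not genes with each other. Differences are log2 fold changes of LY10 over DMSO from limma, on log2(normalized count + 1), with the standard error (SE). "Rose" and "fell" are used for genes past the cutoffs of the study: p below 0.05 before adjustment, and a log2 fold change beyond 1 in either direction. DMSO replicate 3 stood apart: over 9818 genes with a mean of at least 50, its median absolute log2 difference was 0.398 from LY10 replicate 3, but 0.485 and 0.563 from the other DMSO blastocysts. For that reason, the counts of several lists are also given without it. Over all genes 9.46% were then called higher and 14.7% lower, and those counts are to be read against these shares. DMSO replicate 3 and LY10 replicate 1 were the libraries with reads on a list of 5 Y-linked genes, DDX3Y among them. They are called the embryos with Y-linked reads below. All 6 libraries had some reads assigned to the Y chromosome, from 1209 in LY10 replicate 3 to 11763 in DMSO replicate 3. Genes with reads, expected at an equal depth of 7905768 reads, numbered 19836, 21072 and 21345 in DMSO and 17871, 19140 and 18379 in LY10. These groups did not overlap (exact permutation test, two-sided, p = 0.1, the smallest that 3 against 3 allows). The share of reads on the mitochondrial genome was 5.78% ± 1.88 in DMSO and 6.47% ± 1.09 in LY10 (SD, n = 3 each), with overlapping groups (exact permutation p = 0.7).

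Of 14249 genes tested, 884 rose (6.2%) and 1213 fell (8.51%) in LY10. Every LY10 blastocyst was above every DMSO blastocyst in 13.8% of the tested genes, and below in 14.4%. After Benjamini-Hochberg adjustment over all genes, 2 remained under 0.05 by limma, DUXA and LOC538435, both lower in LY10, so every other change below rests on an unadjusted p. Genes that fell made up 57.8% of the calls, against 45.0% under quantile normalization and 38.7% after removal of a trend on gene length. Lower calls were concentrated at low levels: 539 of the 4431 genes with a mean below 50 fell and 116 rose, whereas at a mean of 1000 or more 108 of 2222 fell and 133 rose.

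The 8 genes with the smallest p in each direction, among those whose groups did not overlap, are described first. PGD, which makes NADPH and ribulose 5-phosphate in the pentose phosphate pathway, had normalized counts of 1242, 926 and 1084 in DMSO and 4236, 6081 and 3298 in LY10. Its log2 fold change was 2.03 (SE 0.27, adjusted p = 0.0711 by limma). The basement membrane linker NID1 was at 70.6, 112 and 44.9 in DMSO and 383, 585 and 515 in LY10 (2.76, SE 0.38). PRKCZ, an atypical protein kinase C of the apical polarity complex, rose by 1.66 (SE 0.25), from 253, 219 and 334 to 934, 844 and 746. ALDH1L2, the mitochondrial 10-formyltetrahydrofolate dehydrogenase, was at 435, 247 and 445 in DMSO and 2006, 1577 and 1133 in LY10 (2.07, SE 0.32). The other 4 were MRPL2, CARS1, GNRHR2 and ACSF2, with log2 fold changes of 1.80, 2.17, 2.34 and 2.36. All 8 kept their direction and call in every alternative that tested them.

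On the lower side, DUXA, a PRD-like homeobox gene of genome activation, was read in all DMSO embryos (191, 609 and 703) and had 0 reads in all LY10 embryos. A count of 0 allows up to between 2.01 and 4.09 normalized counts per LY10 library, which covers counting error only. TAGLN, an actin-binding protein of contractile cells, was at 108, 142 and 140.0 in DMSO and 0, 1.34 and 1.29 in LY10, 3 reads over the LY10 group. OCIAD2, a mitochondrial and endosomal membrane protein, fell by 3.64 on the log2 scale, from 301, 809 and 328 to 34.1, 23.5 and 47.9. CNIH4, which takes part in export from the endoplasmic reticulum, was at 1676, 2088 and 1501 in DMSO and 359, 508 and 589 in LY10 (-1.87, SE 0.26). DSE, a dermatan sulfate epimerase, was at 117, 166 and 59.1 in DMSO and 5.45, 3.35 and 5.18 in LY10 (-4.25, SE 0.60). LOC538435, LOC510631 and LOC132346534 complete the 8 genes. LOC510631 was at 675, 5449.5 and 641 in DMSO and 0, 2.01 and 23.3 in LY10. Among genes chosen after their values were seen, 3 members of the S100 family of calcium-binding proteins fell: S100A11 from 2396, 4287 and 2869.7 to 142, 447 and 584, S100A3 with a log2 fold change of -5.19 and S100A4 with -3.36.

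**Figure D1:**
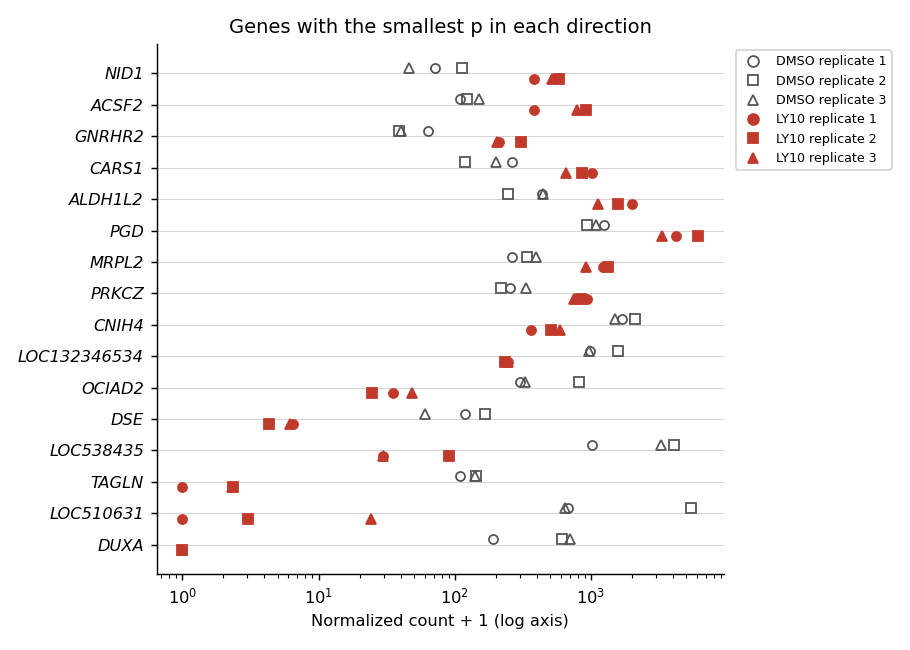
Normalized counts plus 1 (log axis) of the 8 genes with the smallest p in each direction among those whose groups did not overlap, 1 point per blastocyst, open grey for DMSO and filled red for LY10, with the shape giving the replicate. In each row all LY10 points lie on one side of all DMSO points, as the choice of genes required, and DUXA lies at a count of 0 in the 3 LY10 blastocysts.

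The receptor that LY2955303 blocks was hardly read at this stage. RARG (chromosome 5 from 26774193 to 26794819, ARS-UCD2.0) had 0 reads in 5 of the 6 blastocysts and 1 read in LY10 replicate 2. RARA was read at 2.33, 16.9 and 9.85 in DMSO and 9.54, 13.4 and 7.77 in LY10, below the level tested. RARB, itself a retinoic acid target, was at 208, 334 and 83.1 in DMSO and 70.9, 158 and 162 in LY10. Those RARB groups overlapped, and its log2 fold change of -0.56 (SE 0.55, adjusted p = 0.564 by limma) did not pass. RXRB was at 64.4, 96.5 and 51.4 in DMSO and 64.1, 56.3 and 36.3 in LY10 (-0.42). CYP26A1 was read in DMSO replicate 2 alone (0, 20.9 and 0), and DHRS3, a retinaldehyde reductase, was at 42.7, 61.7 and 102 in DMSO and 106, 101 and 58.3 in LY10 with no call.

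Among genes of retinol handling there were calls. Of 12 tested genes of retinoic acid synthesis, binding and breakdown, 1 rose (8.33%) and 4 fell (33.3%), against 6.2% and 8.51% of all genes. Their median log2 fold change was -0.75, against -0.05 over all tested genes. Without DMSO replicate 3 the counts were 2 and 6, and with voom weights 1 and 2. RBP4, the secreted retinol carrier, was at 32.6, 99.5 and 83.1 in DMSO and 1.36, 6.03 and 1.29 in LY10 (-4.29, SE 0.80, adjusted p = 0.0783 by limma), and CRABP2, which hands retinoic acid to the receptors, at 13.2, 38.8 and 83.1 in DMSO and 0, 7.37 and 2.59 in LY10. DHRS9, a retinol dehydrogenase, was at 209.6, 154 and 31.7 in DMSO and 0, 4.02 and 10.4 in LY10 (-4.73). In each of these 3 genes the LY10 embryos lay below all DMSO embryos. Of 10 tested genes known to respond to retinoic acid 3 fell (30%) and 0 rose, CRABP2 and RARRES1 among those that fell. RDH11, a retinal reductase, was the gene that rose, from 2771, 1389 and 3872 to 4974, 5574 and 4735 (1.05, SE 0.35). ALDH1A3, which makes retinoic acid, was at 214, 118 and 511 in DMSO and 521, 376 and 515 in LY10 and did not pass (0.98, SE 0.48). Of 39 HOX genes in the table, 11 were tested and 2 fell (18.2%, against 8.51% of all genes), HOXC13 and HOXD8, with no gene rising. The call of HOXD8 (-1.01, SE 0.44) held in 7 of 21 alternatives. Without DMSO replicate 3, 4 HOX genes fell and 0 rose. In cell2_LY against LY_DMSO the median of 10 HOX genes was 0.43, with 1 called higher and 0 lower.

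Trophectoderm, epiblast and hypoblast markers were read in the blastocysts of both groups. KRT8 and KRT18 were between 13263 and 122407 in every embryo, GATA3 at 3395, 2399 and 3925 in DMSO and 2985, 1764 and 2143 in LY10 and GATA2 at 439, 671 and 798 in DMSO and 680.4, 334 and 465 in LY10, with overlapping groups in each. Of 15 cumulus and granulosa markers 7 passed the filter on low values, 0 rose and 1 fell (HSD3B1), and their summed normalized counts ranged from 893 to 1892 in DMSO and from 329 to 1124 in LY10. Their defining members AMH and PTX3 were at 0 in at least 2 embryos of each group, while FSHR was at 60.5, 90.5 and 40.5 in DMSO and 31.4, 34.2 and 42.7 in LY10 and STAR at 105, 6.96 and 162 in DMSO and 108, 50.9 and 77.7 in LY10. Of 22 oocyte genes 5 passed the filter, 0 rose and 1 fell (OOEP), with sums from 279 to 1120.1 in DMSO and from 237 to 582 in LY10. Of these, ZP2 and NLRP5 did not exceed 6.96, and ZP3 was at 21.0, 26.9 and 27.4 in DMSO and 32.7, 42.2 and 25.9 in LY10. The sums of both lists overlapped between the groups, and their part in the results was not tested. CDX2, the trophectoderm homeobox gene, was at 18.6, 2.98 and 43.8 in DMSO and 109, 42.9 and 45.3 in LY10, a log2 fold change of 2.0 (SE 0.88, adjusted p = 0.219 by limma) that missed the threshold. Its groups overlapped, and DMSO replicate 2 was the lowest. Of 15 trophectoderm transcription factors, 2 fell (13.3%, against 8.51% of all genes), the epithelial factor ELF3 (-1.53) and ARID3A (-1.03), and none rose. GCM1, which drives trophoblast differentiation and fusion, was named after its values were seen; it had the highest log2 fold change of all tested genes (5.58, SE 0.95), at 6.21, 0 and 10.9 in DMSO and 105, 391 and 225 in LY10. Secreted trophoblast genes gave 0 calls among 6 tested; interferon tau IFNT3 was at 218, 117 and 3131 in DMSO and 90.0, 131 and 434 in LY10, highest in DMSO replicate 3.

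The core pluripotency gene POU5F1 rose. Its normalized counts were 2841, 2125 and 1896 in DMSO and 5549.5, 7052 and 3789 in LY10, with all LY10 embryos above all DMSO embryos (1.23, SE 0.28, adjusted p = 0.0786 by limma). DPPA4 rose as well, from 139.7, 156 and 368 to 466, 769.6 and 614 (1.59). NANOG, at 254, 388 and 50.3 in DMSO and 185, 1786 and 423 in LY10, and SOX2, at 40.4, 28.8 and 8.75 in DMSO and 36.8, 44.2 and 40.1 in LY10, overlapped between the groups and did not pass. KLF4 fell by 1.29 on the log2 scale, but DMSO replicate 3 (1591, 1806 and 717 in DMSO) lay within the LY10 range of 498, 381 and 734. In all, 2 of 23 epiblast genes rose and 2 fell, 8.7% in each direction against 6.2% and 8.51% of all genes.

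Of 16 tested hypoblast genes 2 rose (12.5%) and 1 fell (6.25%), against 6.2% and 8.51% of all genes. The list median was -0.22, and 0.34 without DMSO replicate 3. PDGFRA, the receptor that marks the early hypoblast, was at 206, 45.8 and 371 in DMSO and 926, 4099 and 2259.6 in LY10 (3.74, SE 0.76), and HNF4A, a later endoderm factor, at 45.0, 7.96 and 18.6 in DMSO and 142, 269 and 202 in LY10 (3.31, SE 0.61). In both, every LY10 embryo was above every DMSO embryo. GATA6 was lower in level, from 3959.8, 3365 and 2386 to 2111, 1703 and 1938, without overlap, but its log2 fold change of -0.73 (SE 0.24) was short of the threshold. SOX17 was at or below 3.98 in all embryos, and APOE fell (-2.57). Among 15 basement membrane genes, 3 rose (20%) and 2 fell (13.3%). The collagen IV chain COL4A2 was at 10.9, 2.98 and 9.85 in DMSO and 47.7, 115 and 32.4 in LY10 and agrin (AGRN) at 52.8, 38.8 and 112 in DMSO and 142, 195 and 137 in LY10; with NID1 these were the 3 that rose. The laminin chain LAMB1 was at 2444, 3753 and 1343 in DMSO and 869, 1467 and 1044 in LY10, with LY10 replicate 2 above DMSO replicate 3, and NPNT at 10.9, 44.8 and 10.9 in DMSO and 4.09, 0.670 and 1.29 in LY10. Of 18 matrix and integrin genes 4 fell (22.2%, against 8.51% of all genes), THBS1, THBS2, COL1A2 and RELN, and 0 rose.

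**Figure D2:**
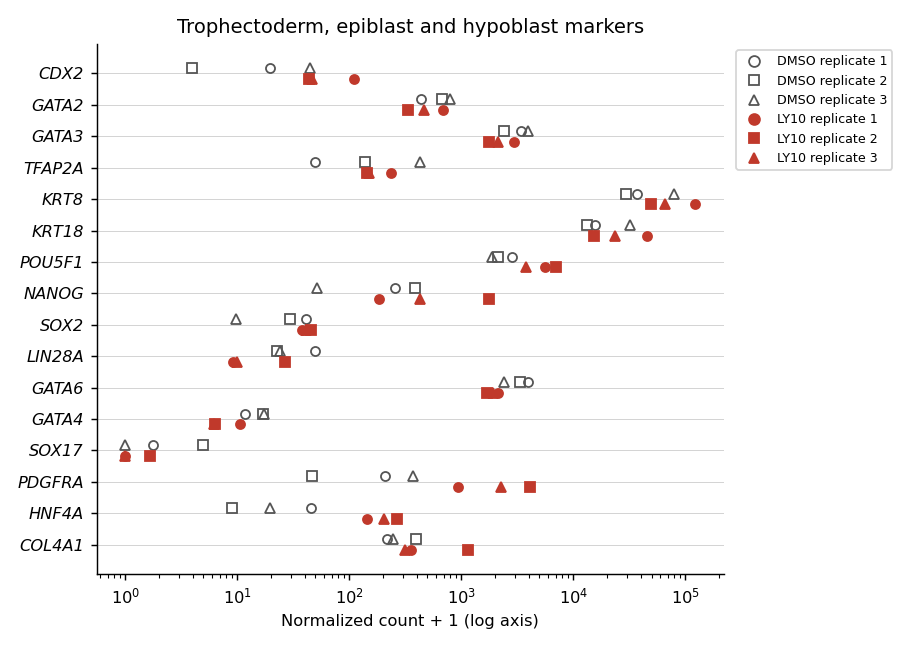
Normalized counts plus 1 (log axis) of 6 trophectoderm (CDX2 to KRT18), 4 epiblast (POU5F1 to LIN28A) and 6 hypoblast (GATA6 to COL4A1) markers, 1 point per blastocyst, open grey for DMSO and filled red for LY10. The groups do not overlap for POU5F1, PDGFRA and HNF4A, which were higher in LY10, and for GATA6 and GATA4, which were lower without passing the threshold.

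Of 37 genes of blastocoel transport and cell junctions 3 rose (8.11%) and 1 fell (2.70%), against 6.2% and 8.51% of all genes. CDH1 (E-cadherin) rose from 390.5, 439.7 and 742 to 1624, 3689 and 1173 (1.93, SE 0.43). The tight junction scaffold TJP3 was at 266, 171 and 289 in DMSO and 556, 592 and 376 in LY10 and desmoplakin (DSP) at 224, 91.5 and 711 in DMSO and 974, 615 and 641 in LY10; the DSP groups overlapped through DMSO replicate 3. The gap junction channel GJA1 fell, from 51.2, 254 and 50.3 to 2.73, 16.8 and 9.06 (-3.33, SE 0.84). The water channel AQP3 was at 703, 518 and 572 in DMSO and 206, 436 and 379 in LY10, without overlap, with a log2 fold change of -0.87 that was short of the threshold. Of 20 contractile genes, 2 rose (CNN2, TAGLN2) and 4 fell (20%), namely TAGLN, tropomyosin TPM2 (-2.60), smooth muscle actin ACTA2 (-1.28) and non-muscle myosin MYH9 (-1.11). MYH9 was at 3695, 2590.4 and 1712 in DMSO and 1340.3, 941 and 1281 in LY10.

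The genes that charge transfer RNAs with amino acids formed the group with the highest share of higher calls among those plotted by list. Of 37 aminoacyl-tRNA synthetases 17 rose and 0 fell (45.9%, against 6.2% of all genes), and 17 rose and 1 fell without DMSO replicate 3. CARS1 was at 260.1, 118 and 200.2 in DMSO and 1008, 860.1 and 651 in LY10 and SARS1 at 1391, 941 and 1452 in DMSO and 3506, 3910.3 and 3109 in LY10 (1.49, SE 0.24). Serine synthesis rose in its first steps. PHGDH, the entry enzyme, was at 627, 147 and 288 in DMSO and 1466, 1646 and 1476 in LY10 (2.35), and PSAT1, the next step, at 1027, 184 and 613 in DMSO and 4760.0, 4405 and 5283 in LY10 (3.30, SE 0.53). PSPH, the last step, was at 3779, 2737 and 1939.7 in DMSO and 2769, 3245 and 2579 in LY10 and did not differ beyond its spread (0.07, SE 0.27). Of 18 serine, glycine and folate genes 6 rose (33.3%, against 6.2% of all genes), including MTHFD1 (1.85) and TYMS (1.03). The 1 that fell (5.56%, against 8.51% of all genes) was the glycine cleavage gene GLDC, from 515, 454 and 138 to 105, 55.6 and 41.4.

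The transcription factor ATF4, which drives amino acid supply genes under stress, rose from 2774, 1028 and 1892 to 5500.4, 5237 and 4734 (1.55, SE 0.34). Its textbook targets asparagine synthetase ASNS (2195, 612 and 1477 in DMSO and 4259.6, 5144 and 3669.7 in LY10) and CHAC1 (61.3, 28.8 and 6.56 in DMSO and 151, 186 and 117 in LY10) rose too, as did TRIB3 and NUPR1. DDIT3 (CHOP), another target, of 883 bases, fell from 911, 1565 and 935 to 277, 531 and 370.3 (-1.54, SE 0.32). With a trend on gene length removed DDIT3 was at -0.85, short of the threshold. ATF3 was at 391, 340.2 and 126 in DMSO and 161, 164 and 228 in LY10 with no call. In total 5 of 18 integrated stress response genes rose (27.8%) and 1 fell (5.56%), against 6.2% and 8.51% of all genes. Among 20 amino acid transporters 4 rose (20%) and 1 fell (5%), against 6.2% and 8.51% of all genes, and without DMSO replicate 3, 3 rose and 3 fell. SLC3A2, the shared heavy chain of several transporters, was at 450.2, 249.7 and 372 in DMSO and 1117, 2519 and 896 in LY10. SLC38A1, a glutamine carrier, was the one that fell with all embryos, at 56.7, 103 and 31.7 in DMSO and 2.73, 3.35 and 1.29 in LY10 (-4.12, SE 0.76). Of 27 heat shock and chaperone genes 3 rose and 3 fell, 11.1% in each direction against 6.2% and 8.51% of all genes. HSPA1A fell from 2877, 788 and 1019 to 266, 63.7 and 373, with its partner BAG3 (-2.47) and HSPB8, while HSF1 (1.58), CCT5 and HSPA2 rose.

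Several enzymes of central carbon metabolism rose. In glycolysis 6 of 22 genes rose (27.3%), among them HK1, GPI, PGAM1 and PKM, and 1 fell (4.55%), TPI1. Over all genes these shares were 6.2% and 8.51%. GPI was at 1362, 1114 and 1668 in DMSO and 3389.7, 3102 and 3178 in LY10 (1.24, SE 0.22) and TPI1 at 437, 589.9 and 1003 in DMSO and 323, 256 and 351 in LY10 (-1.05, SE 0.33). Without DMSO replicate 3, 8 glycolysis genes rose and 0 fell. In the pentose phosphate pathway TKT was at 1513, 1276 and 1629 in DMSO and 2551, 3107 and 2462 in LY10 (0.88), short of the threshold, PGD was the gene that rose and PRPS2 fell (-1.28). Of 25 TCA cycle genes 7 rose and 0 fell (28.0%), and 9 and 0 without DMSO replicate 3. Isocitrate dehydrogenase IDH2 was at 64.4, 39.8 and 29.5 in DMSO and 129.5, 187 and 185 in LY10 (1.94), and succinate dehydrogenase SDHA at 1123, 734 and 1350.0 in DMSO and 3586, 2516 and 2506 in LY10 (1.45, SE 0.28). Of 23 genes of branched-chain amino acid breakdown 6 rose (26.1%) and 0 fell, with the smallest p for IVD (1.59). Of 21 nucleotide synthesis genes 5 rose (23.8%) and 0 fell, with the smallest p for UMPS (1.15).

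**Figure D3:**
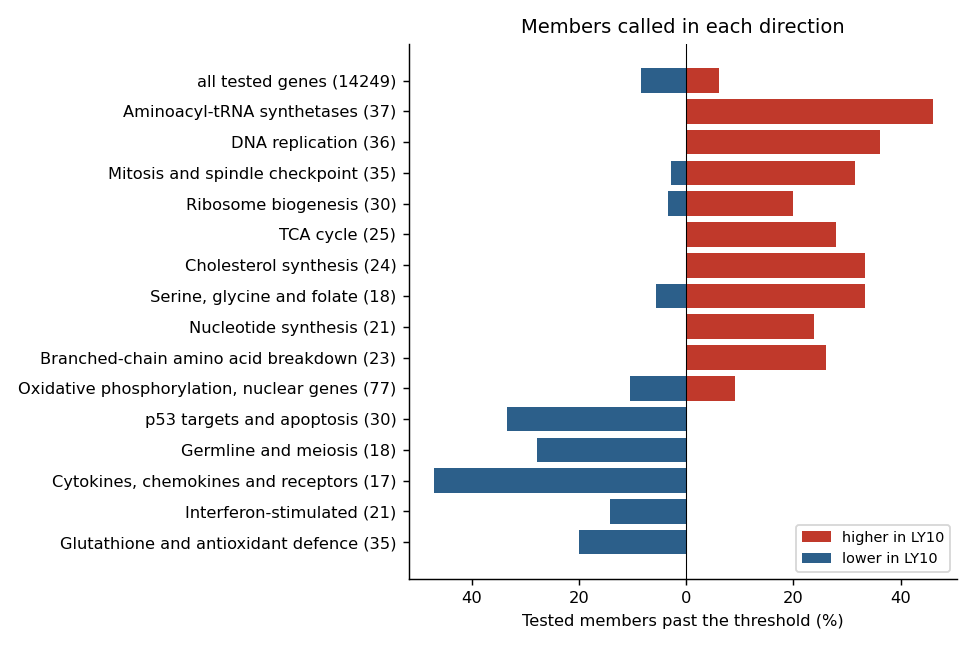
Share of the tested members (percent, number of members in brackets) that passed the threshold, red to the right for higher and blue to the left for lower in LY10, for all tested genes and 15 lists. Aminoacyl-tRNA synthetases reach 45.9% higher and cytokine genes 47.1% lower, against 6.2% and 8.51% of all genes.

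The respiratory chain of oxidative phosphorylation is built from nuclear and mitochondrial genes together. Of 77 nuclear subunit genes 7 rose (9.09%) and 8 fell (10.4%), near the 6.2% and 8.51% of all genes (11 and 12 without DMSO replicate 3). Those that rose were core subunits: UQCRC1 was at 644, 389 and 1224 in DMSO and 3983, 2726 and 2916 in LY10 (2.23, SE 0.39), and the ATP synthase beta chain ATP5F1B at 8062, 6762 and 12342 in DMSO and 21081, 20303 and 17397 in LY10. NDUFV1, NDUFS1, SDHA and CYC1 also rose. Those that fell were accessory subunits and cytochrome c: NDUFB1 was at 4393, 4535 and 3674 in DMSO and 1987, 1542 and 2292 in LY10 (-1.13, SE 0.22), COX7C at 10501, 9214 and 7085 in DMSO and 3736, 3027 and 4851 in LY10 and ATP5ME at 819.7, 1014 and 575 in DMSO and 415, 193 and 438 in LY10. CYCS, cytochrome c itself, fell from 19154, 26844 and 15429 to 7583, 6669 and 10445. The genes that rose had a median length of 1763 bases and those that fell 465. Of 47 subunit genes of up to 1000 bases, 0 rose and 7 fell with a median of -0.51, while of 30 longer ones 7 rose and 1 fell with a median of 0.30. Mitochondrially encoded subunits gave 0 calls among 13, from ATP8 (-0.32) to ND5 (0.82).

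In the mitochondrial ribosome 6 of 77 genes rose (7.79%) and 2 fell (2.60%), and without DMSO replicate 3, 7 rose and 6 fell. Among those called with all embryos were MRPL2 with 1133 bases at 1.80 and MRPL33 with 448 bases at -1.76. In mitochondrial import 3 of 26 genes rose (11.5%), of 1735 to 2319 bases, and 4 fell (15.4%), of 449 to 3135 bases with a median of 529.5. Of 74 cytosolic ribosomal protein genes 0 rose and 2 fell (2.70%, below the 8.51% of all genes), RPS29 and RPL38, of 295 and 418 bases. Over all 12190 protein-coding genes tested, none of the 123 with up to 500 bases rose and 42 fell (34.1%), and of the 808 with more than 500 and up to 1000 bases 13 rose (1.61%) and 140 fell (17.3%). From 1500 to 2000 bases the order was the opposite, with 12.3% rising and 5.38% falling. Genes of up to 1000 bases took 22.1%, 24.3% and 20.3% of the reads in DMSO and 17.2%, 15.8% and 17.7% in LY10, without overlap (exact permutation p = 0.1, two-sided, the smallest possible). The median deviation of the shortest genes from their mean over the 6 libraries was 0.38, 0.57 and 0.32 in DMSO and -0.30, -0.77 and -0.18 in LY10. Among the 66 genes of up to 500 bases with a mean of at least 500, 24 fell and 0 rose, so the difference was not limited to low counts. Its part in the changes of single genes was not tested; as a measurement, with a smooth trend on length subtracted from each library (chosen after seeing the data), NDUFB1 moved from -1.13 to 0.05, RPS29 from -1.08 to 0.12 and COX7C from -1.21 to -0.05. That setting turned the medians of nuclear oxidative phosphorylation from -0.27 to 0.56, of the mitochondrial ribosome from -0.11 to 0.44 and of the cytosolic ribosome from -0.19 to 0.68, where all genes shifted from -0.05 to 0.17. UQCRC1 (2.42), PGD (2.13), POU5F1 (1.73) and S100A11 (-2.21) kept their direction and call there.

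**Figure D4:**
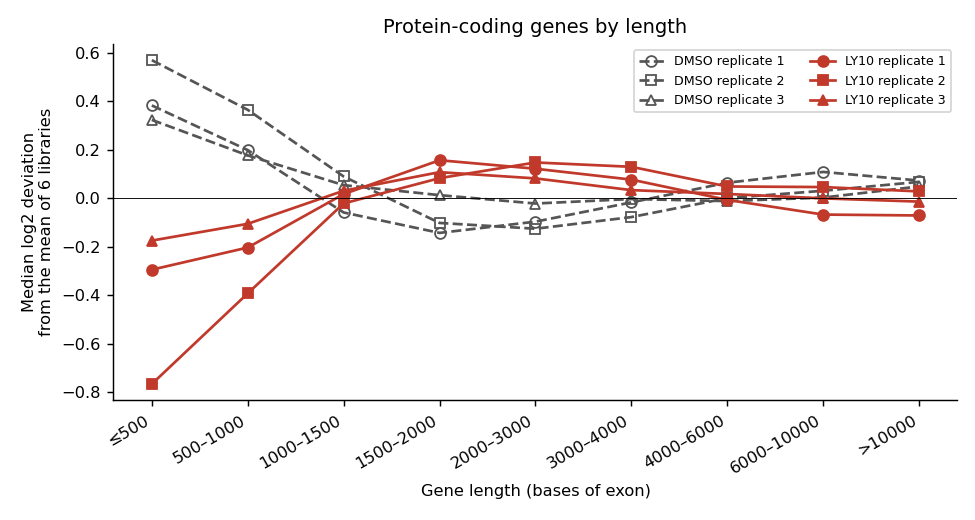
Median log2 deviation of protein-coding genes from their mean over the 6 libraries (y axis), by exon length in bases (x axis, classes in order of length), 1 line per blastocyst, dashed grey for DMSO and solid red for LY10. For genes of up to 500 bases the DMSO medians lie between 0.32 and 0.57 and the LY10 medians between -0.77 and -0.18, and the groups are also apart from 500 to 1000 bases.

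Genes of DNA replication and mitosis were among those that rose most often. Of 36 DNA replication genes 13 rose (36.1%, against 6.2% of all genes) and 0 fell, and 14 and 0 without DMSO replicate 3. GINS2, a part of the replicative helicase, was at 515, 459 and 837 in DMSO and 1384, 1920.0 and 1432 in LY10 (1.42, SE 0.28). The helicase subunits MCM3 and MCM5 were at 1.42 and 1.95. Of 35 mitosis and spindle checkpoint genes 11 rose (31.4%) and 1 fell (2.86%), and 14 and 1 without DMSO replicate 3. CDC20, which activates the anaphase-promoting complex, was at 342, 314 and 746 in DMSO and 2165, 1492 and 1499 in LY10 (1.97, SE 0.35), and topoisomerase TOP2A at 2315, 1669 and 3895 in DMSO and 7776, 7996 and 6989.8 in LY10. The one that fell was the phosphatase CDC25B, at 78.4, 129 and 60.2 in DMSO and 47.7, 46.9 and 32.4 in LY10 (-1.01, adjusted p = 0.211 by limma). The proliferation antigen MKI67, no member of these lists and chosen after its values were seen, was at 32.6, 21.9 and 50.3 in DMSO and 241, 199.8 and 164 in LY10 (2.56, SE 0.41). Of 30 ribosome biogenesis genes 6 rose (20%, against 6.2% of all genes), among them dyskerin (DKC1, 1.15), and 1 fell (3.33%, against 8.51%), NOP10 (-1.24).

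The number of sterol synthesis genes called depended on DMSO replicate 3. Of 24 cholesterol synthesis genes 8 rose (33.3%, against 6.2% of all genes) and 0 fell, and without DMSO replicate 3, 21 rose and 0 fell. For HMGCS1, an early enzyme of the pathway, DMSO replicate 3 was above all 3 LY10 embryos (3033, 1328 and 12405 in DMSO and 12332, 6363 and 12079 in LY10, no call). Averaged over the tested members, the log2 deviation from the mean of the 6 libraries was -0.83, -1.57 and 0.78 in DMSO and 0.78, 0.18 and 0.66 in LY10. In NSDHL and FDFT1 every LY10 embryo was above every DMSO embryo. NSDHL, a sterol dehydrogenase, was at 1755, 1167 and 2295 in DMSO and 3504, 3948 and 5547 in LY10 (1.34, SE 0.30). In fatty acid synthesis 2 of 27 rose (7.41%), TECR (1.60) and AGPAT2, and 3 fell (11.1%), near the 6.2% and 8.51% of all genes. These 3 were malic enzyme ME1, from 52.8, 21.9 and 113 to 6.82, 10.1 and 5.18, and the fatty acid carriers FABP5 (-1.60) and CD36 (-1.24).

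Several cell cycle brakes and death genes fell. Of 30 p53 target and apoptosis genes 10 fell and 0 rose (33.3%, against 8.51%), and 9 fell and 1 rose without DMSO replicate 3. CYCS is one of the 10. With the trend on gene length removed 6 fell and 0 rose, where 838 of all genes fell instead of 1213. CDKN1A (p21), the inhibitor of cyclin-dependent kinases, was at 168, 432 and 237 in DMSO and 36.8, 103 and 67.3 in LY10 (-2.01, SE 0.48). The cell death effector BAX was at 63.7, 149 and 105 in DMSO and 51.8, 41.6 and 29.8 in LY10 and the antiproliferative gene BTG2 at 478, 350.2 and 249 in DMSO and 139, 167 and 176 in LY10. In all 3 genes the groups did not overlap. Of 35 tested antioxidant genes 7 fell (20%, against 8.51% of all genes) and 0 rose, and 9 fell and 2 rose without DMSO replicate 3. SOD1, the cytosolic superoxide dismutase, was at 9917, 10342 and 3679 in DMSO and 2540.2, 1523 and 3439 in LY10, where DMSO replicate 3 lay close to the highest LY10 embryo. GCLC, the limiting enzyme of glutathione synthesis, was at 2179, 2223 and 1089 in DMSO and 634, 672 and 1002 in LY10. GSTM3 was at 590.0, 1691 and 31.7 in DMSO and 6.82, 2.68 and 1.29 in LY10, with a control spread of more than an order of magnitude.

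Of 17 tested cytokine, chemokine and receptor genes 8 fell (47.1%, against 8.51% of all genes) and 0 rose, with and without DMSO replicate 3, and 4 fell with voom weights. IL18 was at 3007, 4649.7 and 1234 in DMSO and 284, 652 and 838 in LY10 (-2.26, SE 0.53), the chemokine CCL26 at 90.0, 189 and 159 in DMSO and 6.82, 16.8 and 33.7 in LY10 and TNFRSF1B, a receptor for tumour necrosis factor, at 147, 122 and 127 in DMSO and 62.7, 55.6 and 53.1 in LY10. Interferon-stimulated genes gave 3 lower calls among 21 (14.3%, against 8.51% of all genes), MX1, IFIT5 and EIF2AK2. MX1, an antiviral GTPase, was at 180.1, 84.6 and 441 in DMSO and 0, 4.02 and 15.5 in LY10. Several others were read almost in DMSO replicate 3 alone, such as IFI6 (1.55, 1.99 and 645 in DMSO and 1.36, 0 and 0 in LY10) and IFI44L (0.776, 0 and 219.9 in DMSO and 0, 0 and 0 in LY10). Without that embryo the list median was -0.19 instead of -1.38. For antigen presentation, B2M, the light chain of MHC class I, fell from 7329.6, 5294 and 8083 to 1129, 2460.3 and 1748 (-2.0, SE 0.31). ERAP1, a peptidase that trims antigens, was at 35.7, 0 and 2.19 in DMSO and 43.6, 381 and 33.7 in LY10, so its call (4.10, SE 1.39) came with overlapping groups.

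Some germline and early homeobox genes fell. Of 18 tested germline and meiosis genes 5 fell (27.8%, against 8.51% of all genes) and 0 rose. Without DMSO replicate 3, 7 fell and 0 rose, and with voom weights 2 and 0. The median of the list was -0.97, also with the gene without LY10 reads placed at 3 reads over the group. SYCP1, a synaptonemal complex protein, had 34.2, 28.8 and 13.1 in DMSO and 0 reads in all LY10 embryos, and SYCP3 was at 3506, 2747 and 2466 in DMSO and 1096, 1519 and 416 in LY10. DAZL was at 144, 653 and 6.56 in DMSO and 4.09, 0 and 0 in LY10, so the control spread was wide. Of 9 PRD-like and genome activation genes 3 fell (33.3%, against 8.51% of all genes) and 0 rose. Without DMSO replicate 3, 2 fell and 1 rose, and with voom weights 1 fell. The 3 that fell with all embryos were DUXA, ARGFX (600.1, 514 and 33.9 in DMSO and 17.7, 13.4 and 32.4 in LY10) and LEUTX (2.33, 64.7 and 719.9 in DMSO and 0, 2.01 and 1.29 in LY10). For ARGFX, DMSO replicate 3 exceeded the highest LY10 embryo by less than 2 normalized counts, and for LEUTX it held most of the control signal. Of 13 tested imprinted genes MEST (-2.58) and NNAT (-2.63) fell (15.4%, against 8.51% of all genes). Of 23 FGF and MAPK genes 1 rose (4.35%), the receptor FGFR4 (1.81), and 3 fell (13.0%), FGF2, the MAPK phosphatase DUSP5 and FOSL1. DUSP5 was at 288, 399 and 424 in DMSO and 25.9, 89.8 and 114 in LY10 (-2.48, SE 0.53). Of 17 Notch genes 0 rose and 2 fell (11.8%, against 8.51% of all genes), NOTCH1 and its target HEY2 (-3.12 and -2.71). Of 23 TGF-beta genes 0 rose and 1 fell (4.35%), the receptor TGFBR2 (-3.18). In other lists, 1 of 22 Wnt genes rose (FZD5) and 1 fell (FZD1), 1 of 20 Hippo genes fell (AMOTL1), and 0 of 10 DNA methylation genes were called. Of 19 hypoxia genes 1 rose and 3 fell (15.8%). Of 16 keratin and filament genes 2 fell (12.5%) and 0 rose, but 5 rose and 2 fell without DMSO replicate 3. Of 38 proteasome genes 5 rose (13.2%, against 6.2% of all genes) and 1 fell.

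Among lncRNA genes and gene models without a name, more fell than rose. Of 655 tested lncRNA genes 106 fell (16.2%, against 8.51% of all genes) and 10 rose, and of 924 gene models without a name 162 fell (17.5%) and 16 rose. These classes were not compared with other genes at a matched level. Over all genes, 539 of the 4431 with a mean below 50 fell and 116 rose. In other classes, 20 of 365 pseudogenes fell (5.48%) and 15 rose, and 0 of 43 snoRNA and 0 of 10 tRNA genes were called. The models without a name held 1.56%, 2.02% and 0.986% of the reads in DMSO and 0.636%, 0.896% and 0.771% in LY10, and the groups did not overlap (exact permutation p = 0.1, two-sided).

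The second experiment from the 2-cell stage, with other embryos and other controls, gave values that can be read beside these. Of its 14529 tested genes 1265 (8.71%) were higher and 1211 (8.34%) lower in cell2_LY than in LY_DMSO at the same threshold, with 2 blastocysts per group and a spread shared with the other treated group of its table. Of 872 genes that rose in LY10 and were tested there, 315 (36.1%) were positive in cell2_LY, against 48.4% of all 13019 genes tested in both. In numbers of calls, 47 of the 872 (5.39%) were called higher and 132 (15.1%) lower, against 8.73% and 8.94% of all 13019 genes. Of 934 genes that fell in LY10, 534 (57.2%) were negative, against 51.6% of all genes. Of these 934, 66 (7.07%) were called lower and 79 (8.46%) higher, both shares below those of all genes. Lists in which more genes rose than fell in LY10 included several with negative medians there: -0.22 for aminoacyl-tRNA synthetases, -0.70 for DNA replication, -0.72 for the TCA cycle and -0.97 for ribosome biogenesis. With the reads on genes as library size, the median of all genes tested there was 0.23 higher and that of the synthetases was 0.01, so its sign depended on the scaling. Relative to the median of all genes, the synthetases were at -0.22 under both. Cholesterol synthesis (0.50) and the germline list (-1.08) had the sign they had in LY10. The p53 target and apoptosis list did not, with a median of -0.59 in LY10 and 0.24 in cell2_LY. Of its 10 genes that fell in LY10, 3 were negative in cell2_LY and 0 were called lower. The trophectoderm transcription factors had a median of 1.22 with 6 of 15 called higher, against -0.32 with 0 of 15 in LY10; GATA2 was at 2637 and 2251 in cell2_LY and 839 and 447 in LY_DMSO. The 2 groups of the second experiment also differed in Y-linked genes. There the 5 genes of the Y chromosome list had a median of 4.96, with 1 called higher and 0 lower. The part of this difference in the other values was not tested. No test was made across the tables, which were normalized separately.

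The 47 higher and 66 lower calls shared by direction were thus smaller shares than those over all genes, and the values of some of these genes are given as a description. DUXA was at 27.3 and 0.986 in cell2_LY and 318 and 44.4 in LY_DMSO, and LOC510631 at 19.7 and 0 in cell2_LY and 137 and 252 in LY_DMSO. In GSTM3 the values were 2.18 and 0 in cell2_LY and 31.5 and 237 in LY_DMSO. THBS2 and ARGFX were also lower in both (-2.52 and -2.94 in cell2_LY), and TJP3 and AGRN were higher in both (1.02 and 1.75). POU5F1, by contrast, was at 6006 and 4840.2 in cell2_LY and 6519 and 3959.7 in LY_DMSO (0.09). Of the genes that rose in LY10, 132 were called lower in cell2_LY, and of those that fell 79 were called higher. Genes named above were among them: UQCRC1 (-1.57), CDH1 (-1.18), UMPS (-1.88), DPPA4 (-1.29), ELF3 (2.68), DUSP5 (1.96) and ME1 (3.57) in cell2_LY. RARB fell in cell2_LY, from 195 and 307 in LY_DMSO to 21.8 and 39.5 (-3.01, adjusted p = 0.0711 by limma), where LY10 had given no call. For CDX2, cell2_LY had a log2 fold change of 2.78 (adjusted p = 0.0811 by limma), in the direction seen in LY10. GCM1 went in the opposite direction without a call (-1.93, adjusted p = 0.408 by limma). It was at 156 and 6.90 in cell2_LY and 403 and 43.4 in LY_DMSO, with overlapping groups.

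**Figure D5:**
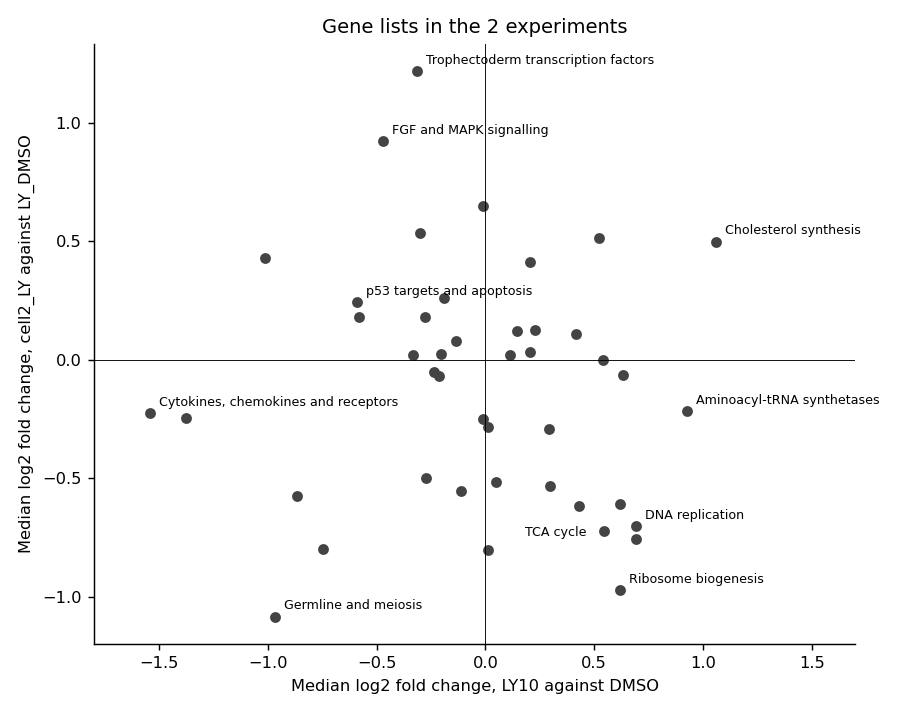
Median log2 fold change of 44 gene lists with at least 10 tested members in both experiments, LY10 against DMSO (x axis) and cell2_LY against LY_DMSO (y axis), 1 point per list, with the library sizes implied by the FPKM. Of these, 8 lists are positive in both, 10 negative in both and 26 differ in sign; ribosome biogenesis, DNA replication and the TCA cycle lie at the lower right.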

How the data were processed

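Single blastocysts were sequenced with SMART-seq, 3 LY10 and 3 DMSO libraries. The submitters' processing notes name HISAT2 2.0.5, StringTie 1.3.3b, featureCounts 1.5.0-p3 and DESeq2 1.20.0; the methods also name STAR. The authors deposited FPKM per gene with gene lengths, beside fold changes and p-values of their own DESeq2 comparison, which were not used. FPKM times length fell on whole reads for 100% of the values, within 0.02 reads. Reads were divided by the library size implied by the FPKM (0.95 to 1.07 times the reads on genes) and scaled to the geometric mean. Of the positions in the table, 98.8% are those of RefSeq on ARS-UCD2.0. Strand was not stated, so reads of overlapping genes cannot be told apart, and reads may be shared between near-identical copies, such as LOC genes, glutathione transferases and ribosomal proteins.

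The comparison was fitted with limma (version 3.58.1, under R 4.3.3; lmFit, then eBayes with a trend) for genes whose mean reached 10, on log2(normalized count + 1), without covariates. The fit of the second table used its 3 groups of 2. The labels do not say whether embryos came from separate fertilizations; p-values measure the spread between these embryos. The 52 gene lists were written from general knowledge, and they, the members and the tests were chosen with earlier results of these data known. Genes were named by rule: in each direction the 8 smallest p among genes whose mean reached 50 and whose groups did not overlap, the leading member of each list in each direction, the ends of a list's range, and RARA, RARB, RARG, CYP26A1, DHRS3, CDX2, GATA3, POU5F1, NANOG, SOX2, GATA6 and SOX17. Other members named were chosen after their values were seen. Alternatives covered pseudocounts, filters, scalings, weights, a replicate block, sex-linked genes and each library left out. The stem cell libraries of the series were not analysed here, and some genes that the naming rule covers are not reported here.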

Additional observations from a re-analysis of the deposited data

Results flagged for a closer look

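Among the 16 genes described first, 4 had non-overlapping groups in opposite directions in the 2 experiments, which set them aside for a closer look. In the second experiment 26.9% of all tested genes had non-overlapping groups in each direction. The difference between the experiments was not tested, and the tables were normalized separately. MRPL2 had a log2 fold change of 1.80 in LY10 and -1.59 in cell2_LY (adjusted p = 0.0738 by limma), with 402 and 755 in cell2_LY and 1739 and 1577 in LY_DMSO. GNRHR2 had 2.34 and -1.01, and ACSF2 2.36 and -1.10, and both missed the threshold in cell2_LY (adjusted p = 0.21 and 0.212 by limma). TAGLN had -6.21 in LY10, a fitted value that depends on the pseudocount because the LY10 group held 3 reads, and 4.27 in cell2_LY, with 174 and 54.3 in cell2_LY and 0 and 25.0 in LY_DMSO.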

How the results depend on the processing

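Of 79 named genes, each under up to 21 alternatives, 1530 of 1612 values kept their direction and their side of the threshold, 64 lost the call, 16 gained one and 2 reversed, NDUFB1 (0.051) and RPS29 (0.12) after removal of the trend on gene length. Of the 1090 list medians, 85 moved by more than 1 SD between replicates. The count of 884 higher genes became 583 on log2(FPKM + 1) and 1329 after removal of the length trend, and ranged from 666 to 1348 with 1 blastocyst left out; the high end came without DMSO replicate 3. The count of 1213 lower genes became 607 at a mean of at least 50, 2123 without a filter, 650 among protein-coding genes of at least 1500 bases and 1903 without both embryos with Y-linked reads, and ranged from 661 (without DMSO replicate 2) to 2101 (without DMSO replicate 3). The 2 genes past adjustment became 0 at a mean of at least 50 (2517 genes at an unadjusted p under 0.05) and with voom weights (2865), 1 among the longer protein-coding genes, 4 without sex-linked genes, 5 after removal of the length trend, 30 without a filter, 684 without both embryos with Y-linked reads and 1551 with sample weights, and ranged from 0 to 1963 with 1 blastocyst left out, 0 without DMSO replicate 2 and 1963 without DMSO replicate 3. In the second experiment the 1265 higher genes ranged from 698 to 1563 and the 1211 lower genes from 853 to 1878 with 1 blastocyst left out, and 1842 were higher and 674 lower with the reads on genes as library size. The highest lower count came without cell2_LY replicate 2 and the lowest higher count without cell2_LY replicate 1. With voom weights 840 genes were lower in all (5.90%), among them 4 of 17 cytokine, 2 of 18 germline, 2 of 12 retinoic acid handling and 1 of 9 PRD-like genes. The cause of these moves was not tested, beyond the smaller number of genes or embryos in a setting. The alternatives on gene length were chosen after seeing the data.

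With the replicate number as a block, 885 genes were higher and 1175 lower, and 4 passed adjustment. The numbers do not pair the embryos: deviations of same-numbered embryos correlated at -0.12, 0.17 and -0.10 across genes. In the second experiment the correlation was 0.12, and the block gave 1240 higher and 1249 lower genes. With 3 embryos per group and single libraries, genes read at 0 are limited at 3 reads.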
